A study of Mus musculus with 8 samples.

Results

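The genes described here encode the machinery that carries proteins and RNA through the nuclear envelope: importins, exportins, the GTPase Ran with its partners, and the proteins of the nuclear pore complex (nucleoporins). They were chosen by symbol (names that begin with KPNA, KPNB, IPO, XPO, TNPO, NUP or RANBP and a number, with XPOT, CSE1L, RAN and RANGAP1) and by a summed count of at least 16 over all 8 libraries. Of 33514 rows in the count table, 59 matched by symbol and 33 of these reached the sum. The sum used both groups together and not the difference between them. The counts come from adult C57BL/6 mouse cardiomyocytes in culture. In 4 of the 8 libraries the cells were transfected with the negative control, siN, and in the other 4 with siHoxa5, which targets the homeobox transcription factor Hoxa5; 24 h later all 8 were given phenylephrine, an alpha1-adrenergic agonist, at 100 µM for 24 h. The labels name no other genetic change, do not say whether repeats came from separate hearts or cultures, and give no age, so a p-value here reflects library-to-library spread, which may be technical.

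Cargo with a classical nuclear localization signal is held by an importin alpha adaptor (KPNA genes), which binds importin beta (KPNB1). Other receptors of the importin beta family bind cargo directly, for import or, as exportins, for export. Ran, loaded with GTP in the nucleus, makes importins release their cargo and lets exportins bind theirs. Both kinds of receptor pass through the pore by touching nucleoporins that carry phenylalanine-glycine repeats. In cardiomyocytes, nuclear entry of NFAT and GATA4 and nuclear export of class IIa histone deacetylases through XPO1 are known steps of hypertrophic signalling.

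Library totals ranged from 560190 to 658192 counts, and the median standard error of a member's log2 fold change was 0.14. HOXA5 had 2, 0, 3 and 3 counts in siN libraries 1 to 4 and 1, 3, 4 and 1 in siHoxa5 libraries 1 to 4, so a lower level of the siRNA target was not detectable at this depth and the groups are named by their labels. On principal component 1 of the whole table, siHoxa5 libraries 2 and 4 took extreme positions (10.77 and 10.95, against 2.74 and 4.69 for siHoxa5 libraries 1 and 3 and -7.77 to -6.30 for siN). On principal component 2 they lay on opposite sides (8.3 and -13.41). They also had the lowest totals, 560190 and 574882.5 counts. Of 10 cardiomyocyte markers 7 had counts, with TNNI3, MYL2 and MYL3 at 0, although adult heart muscle is known to express these. Their summed level was 48520 to 51727 CPM (counts relative to library size) in siN and 62251 to 67638 CPM in siHoxa5. Fibroblast markers (6 of 8 with counts, LUM and TCF21 at 0) summed to 10179 to 10848 CPM in siN and 10904 to 12846 CPM in siHoxa5. Proliferation markers (5 of 6, CDK1 at 0) summed to 102 to 112 CPM in siN and 129 to 171 CPM in siHoxa5. In these 3 lists the groups did not overlap. Endothelial, smooth muscle and pericyte, and macrophage markers each summed to 32.7 CPM or less in every library. Only 2 of 6, 3 of 6 and 2 of 6 of them had counts. At 0 were PECAM1, CDH5, VWF and EMCN, then CNN1, RGS5 and PDGFRB, then CD68, ADGRE1, CD14 and LYZ2. The low sums therefore do not show that these cells were absent. In bulk libraries a change in the number of cells of a type and a change in RNA per cell cannot be told apart.

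Transport receptors were well covered by the counts and pore proteins poorly. Of the matching symbols, 5 of 7 importin alpha genes, 10 of 12 import receptors and 8 of 8 exportins reached a sum of 16. By contrast, 0 of 6 genes of the Y complex, the outer ring of the pore, reached it, and NUP107 and NUP37 had 0 counts. Likewise 2 of 5 inner ring genes, 1 of 3 central channel genes (NUP58, with NUP62 at 2 counts and NUP54 at 1), 2 of 3 genes of the basket and its mobile partners, and 2 of 3 on the cytoplasmic side reached the sum. NUP210, the membrane nucleoporin, was at 0. In the Ran system RAN alone was measured: RANGAP1, the GTPase-activating protein, and RANBP3, a cofactor of export, had 3 counts each, and RANBP1, a Ran-GTP-binding cofactor, had 0. In all 26 matching symbols fell below the sum and 13 of them had no count, which over 4957732.5 counts allows a level of up to 0.605 CPM if reads of the gene were counted at all. Of these 13, 4 matched by symbol only and were given no transport or pore role here (IPO9-AS1, NUP210L, NUP50-DT and NUP62CL). SEC13, RAE1 and DDX39B, transport genes known to be used by most cells, were also at 0, as were the heart muscle genes named above. The annotation is not known here, so a 0 cannot be read as low expression. IPO8, an import receptor related to IPO7, was among the 13. The members just inside the threshold were NUP205 with 33 counts and RANBP17 with 34, and the symbols just outside were NUP133 with 14 and NUP160 with 6. The table's symbols are spelled as human genes, and some, such as C4orf54, AC021224.1 and IPO9-AS1, are names given to human genes. The build named in the processing notes is that of mouse, mm10, and how the names were assigned is not stated. Whether the zeros follow from this was not tested. Counts per gene here cannot be read as a ranking of expression.

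**Figure D1:**
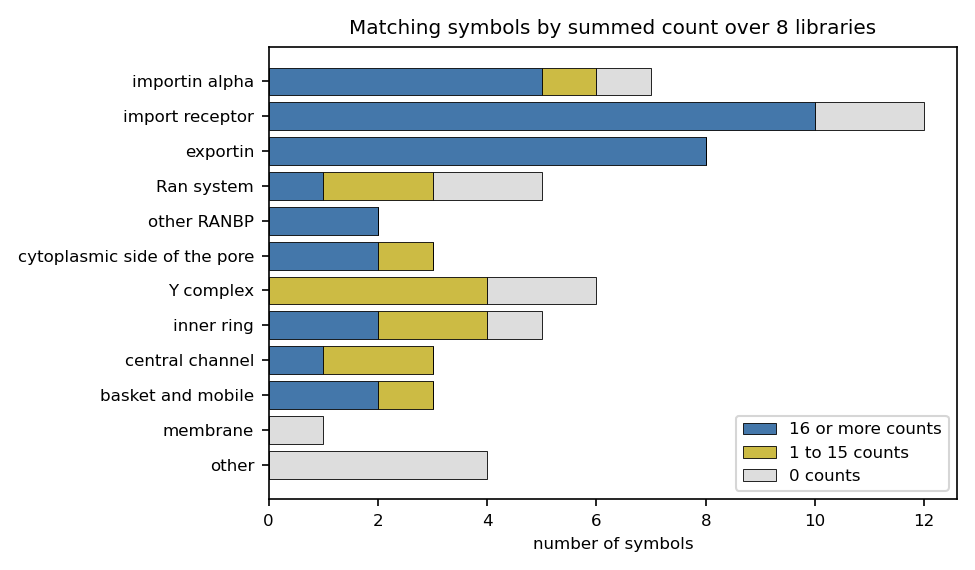
Number of matching symbols (horizontal axis) in each functional group, coloured by their summed count over the 8 libraries. Importins and exportins mostly have 16 or more counts, while 0 of 6 Y complex genes do.

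Several members belong to families of close relatives, and reads could be shared between them. The coding sequences of the mouse genes (GENCODE M21, GRCm38) were therefore compared for 31 members. No pair of members shared a stretch of 50 bases. The longest shared stretches of the related pairs were 26 bases, between KPNA3 and KPNA4, TNPO1 and TNPO2, and IPO5 and RANBP6, whose coding sequences were 75.4%, 74.8% and 77.1% identical. They are printed because they show how soon such relatives differ; capitals mark the identical stretch, with 15 bases of each gene on either side.
KPNA3: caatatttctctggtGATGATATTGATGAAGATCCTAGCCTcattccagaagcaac
KPNA4: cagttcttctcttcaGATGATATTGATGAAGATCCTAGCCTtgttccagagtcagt
TNPO1: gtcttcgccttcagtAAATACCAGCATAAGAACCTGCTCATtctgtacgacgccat
TNPO2: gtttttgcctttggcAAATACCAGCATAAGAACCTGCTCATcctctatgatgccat
IPO5: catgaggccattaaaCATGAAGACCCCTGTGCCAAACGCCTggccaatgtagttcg
RANBP6: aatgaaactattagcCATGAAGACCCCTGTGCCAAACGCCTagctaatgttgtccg
The stretch starts at base 1462 of the KPNA3 coding sequence and base 1768 of KPNA4, at 1618 of TNPO1 and 1585 of TNPO2, and at 3157 of IPO5 and 3181 of RANBP6, counted from the first base of the start codon. Sharing with pseudogenes was more extensive. Of the 31 members, 7 shared 50-base stretches with another annotated gene: 60.6% of the RAN stretches occur also in Rasl2-9 or a pseudogene, 44.7% of those of TNPO1, 29.9% of XPOT, 15.2% of XPO4 and 8.11% of IPO5, with under 1% for IPO7 and RANBP2. The sources used here do not say how reads matching several genes were treated, so the counts of these genes are uncertain by an unknown amount. The percentages are shares of mouse coding sequence. They do not measure that uncertainty and need not carry over to the table's rows, whose annotation is not known. The row KPNA5 has no mouse gene of that symbol in GENCODE M21, and RefSeq (GRCm38.p6) lists the name as a synonym of Kpna6. Its 104 counts stand in a row apart from the 769 of KPNA6, and what they measure in mouse cells is not known from the files.

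Between siHoxa5 and siN, the transport and pore genes gave few calls and a median change near 0. Of the 33 members, 31 passed the expression filter and could be called in the fit over 3020 genes, where 7.12% of genes passed the threshold (adjusted p under 0.05 in edgeR's quasi-likelihood test with Benjamini-Hochberg adjustment; 3.74% higher, 3.38% lower). Of the members, 1 rose (IPO13) and 0 fell. DESeq2 also called 1 member, against 4.77% of its 2493 genes. It was IPO13, only just under the threshold (adjusted p = 0.0491 in DESeq2). At an unadjusted p under 0.05 there were 3 of the 31, IPO13, TNPO2 and RANBP9, all higher in siHoxa5, against 19.6% of all genes tested. In a fit of all 4397 rows with a sum of at least 16, which gives every member a value, the median log2 fold change of the 33 was 0.01, as it was for all 4397 rows (0.01). That fit called 1 member, against 4.18% of its rows, and 3 of 33 had an unadjusted p under 0.05, against 15.7%. The values of 18 members lay above 0 and of 15 below, and their median size was 0.09 against 0.20 for all rows. The members were also better measured than most rows, with a median standard error of 0.14 against 0.24, so the sizes are not directly comparable. Together the 33 genes took 7724 to 8185 CPM in siN libraries and 8108 to 8202 CPM in siHoxa5 libraries, ranges that overlap.

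The precision of these values can be stated as intervals. For 26 of the 33 members (78.8%) the 95% interval of the fold change lay within 1.5-fold in either direction, against 40.7% of all rows with the same sum. The 7 others were IPO11, KPNA5, NUP205, RANBP17, RANBP6, XPO5 and XPOT, with 33 to 292 counts each. For all but NUP205 and RANBP17 within 2-fold. A member without a call may still differ by an amount inside its interval.

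**Figure D2:**
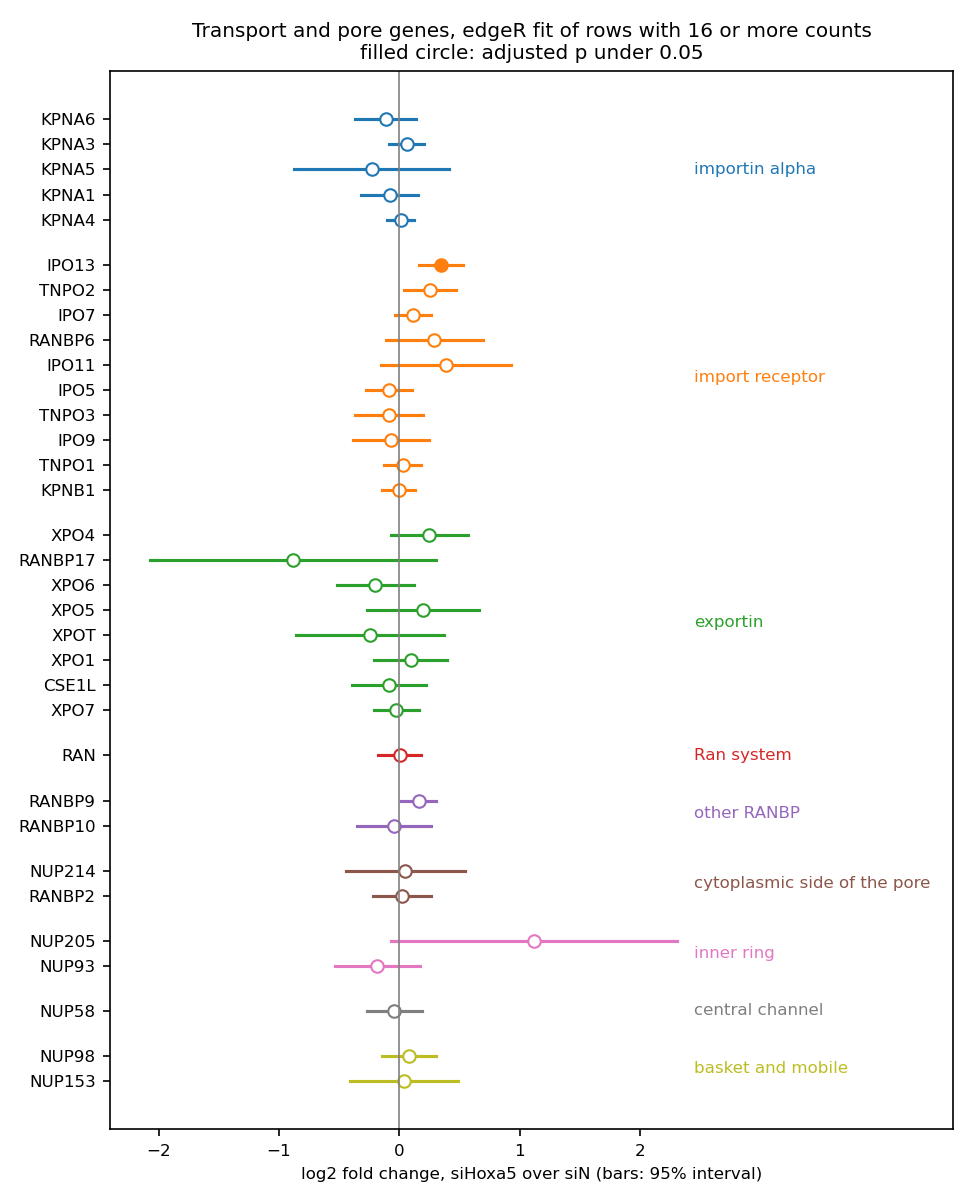
Log2 fold change of each of the 33 genes, siHoxa5 over siN, with its 95% interval (horizontal bar), in the fit of all rows with 16 or more counts, grouped by role. IPO13 alone carries a filled circle (adjusted p under 0.05), and NUP205 and RANBP17 have the widest intervals.

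The importin alpha adaptors gave no call. KPNA4 and KPNA3, which form one subfamily of adaptors, had the most counts. KPNA4 stood at 1501, 1497, 1446 and 1486 CPM in siN libraries 1 to 4 and at 1525, 1421, 1482 and 1499 CPM in siHoxa5 libraries 1 to 4. Its log2 fold change of -0.0006 had a 95% interval of -0.11 to 0.11 (adjusted p = 0.995), the narrowest of the members, and the siHoxa5 values enclosed the siN values. KPNA3 was at 635, 571, 524 and 614 CPM in siN and 594, 618, 603 and 611 CPM in siHoxa5 (0.05, SE 0.07, adjusted p = 0.785). Of another subfamily, KPNA1 had 182 ± 9.21 CPM in siN and 171 ± 20.2 CPM in siHoxa5 (SD, n = 4 each), a difference of -0.09 on the log2 scale (SE 0.12). KPNA6 was at 165, 151, 178 and 161 CPM in siN and 178, 135, 147 and 138 CPM in siHoxa5 (-0.13, SE 0.13, adjusted p = 0.651). Its siHoxa5 libraries 2, 3 and 4 lay below every siN library, and siHoxa5 library 1 was level with the highest. The row KPNA5 had a log2 fold change of -0.24 (SE 0.33). KPNA2, an adaptor abundant in dividing cells, had 3 counts in all.

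Among the import receptors IPO13 alone was called, in a fit where 7.12% of all genes tested were called. IPO13 carries cargo in both directions, exporting among others the translation factor eIF1A. It lies on mouse chromosome 4 (GRCm38, 117894486 to 117914999, minus strand, GENCODE M21 gene ENSMUSG00000033365.14), and its coding sequence shares no 50-base stretch with another annotated gene. Its level was 329, 295, 296 and 323 CPM in siN libraries 1 to 4 and 343, 441, 347 and 444 CPM in siHoxa5 libraries 1 to 4. All 4 siHoxa5 libraries lay above all 4 siN libraries, but libraries 1 and 3 by little and libraries 2 and 4 by much. Means were 311 ± 17.8 CPM in siN and 394 ± 56.2 CPM in siHoxa5 (SD, n = 4 each). On the log2 scale IPO13 rose by 0.33 (SE 0.09, 95% interval 0.15 to 0.52, adjusted p = 0.0103), or 1.26-fold. Without siHoxa5 libraries 2 and 4 the rise was 0.15 (adjusted p = 0.504) and the call ended. This setting was chosen after seeing the data. It leaves out the highest IPO13 values, which lowers the rise in any case, and leaves fewer libraries to test. Leaving out siHoxa5 library 2 alone (0.28, adjusted p = 0.0875), siHoxa5 library 4 alone (0.27, adjusted p = 0.0653) or siN library 3 (0.31, adjusted p = 0.0581) also ended the call, with a log2 fold change still near that of all 8 libraries. The cardiomyocyte, fibroblast and proliferation markers given above moved with the groups as well, and their part in the result was not tested.

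**Figure D3:**
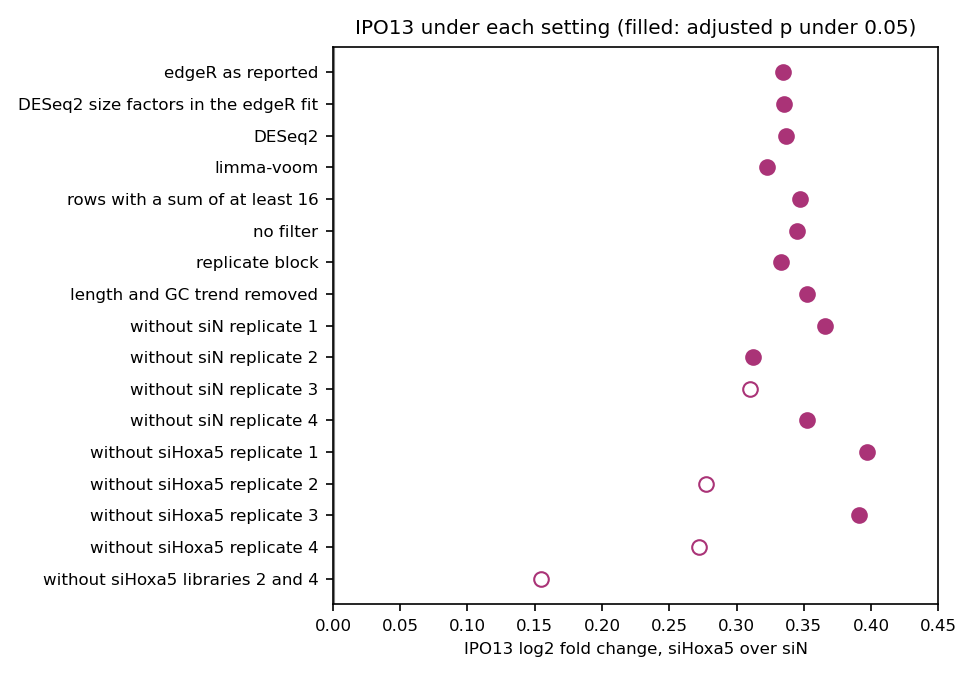
IPO13 log2 fold change (horizontal axis) under each processing setting (rows), filled where the adjusted p was under 0.05. The value stays above 0 in every row, is 0.15 without siHoxa5 libraries 2 and 4, and is open in 4 rows.

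TNPO2, transportin 2, an import receptor for RNA-binding proteins, had the next smallest p. It stood at 245, 224, 206 and 178 CPM in siN and at 273, 226, 274 and 235 CPM in siHoxa5, with a log2 fold change of 0.25 (SE 0.11, adjusted p = 0.173). The groups overlapped, since siN library 1 lay above siHoxa5 libraries 2 and 4. Here siHoxa5 libraries 1 and 3 were the high ones, the reverse of IPO13. Its close relative TNPO1 had 563, 556, 508 and 458 CPM in siN and 560, 532, 507 and 509 CPM in siHoxa5 (0.02, SE 0.08, adjusted p = 0.940). The ratio of TNPO2 to TNPO1 counts within a library, which no scaling affects, was 0.434, 0.403, 0.406 and 0.388 in siN and 0.487, 0.425, 0.540 and 0.461 in siHoxa5. The difference of 0.07 had p = 0.0571 in a two-sided exact permutation test over 70 assignments, where the smallest p is 0.0286, and p = 0.286 adjusted over 6 pairs of relatives. These pairs were chosen after the counts were seen. Of the other 5 pairs, RANBP6 to IPO5 had exact p = 0.114, RANBP17 to XPO7 0.143, RANBP10 to RANBP9 0.314, KPNA3 to KPNA4 0.400 and KPNA1 to KPNA6 0.743.

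KPNB1, importin beta itself, was at 754, 784, 685 and 798 CPM in siN and 714, 778, 784 and 708 CPM in siHoxa5, a log2 fold change of -0.02 with a 95% interval of -0.15 to 0.12 (adjusted p = 0.921). The partner of every importin alpha adaptor thus differed by less than its spread between libraries. IPO7, which imports ribosomal proteins and histone H1 with KPNB1, was at 552, 544, 523 and 496 CPM in siN and 549, 556, 574 and 593 CPM in siHoxa5 (0.10, SE 0.08, adjusted p = 0.498). Only siHoxa5 library 1 lay within the siN range. IPO5, an importer of ribosomal proteins and core histones, had 313 ± 18.03 against 292 ± 19.5 CPM (-0.10, SE 0.10). Its relative RANBP6 had 50.8, 66.7, 39.4 and 59.7 CPM in siN and 67.0, 45.5, 71.7 and 78.2 CPM in siHoxa5 (0.28, SE 0.20), with siHoxa5 library 2 inside the siN range and the 3 others above it.

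IPO11, an importer of ubiquitin-conjugating enzymes, had few counts, 148 in all, and its groups did not overlap. Its levels were 29.2, 20.6, 26.8 and 29.1 CPM in siN and 39.2, 32.8, 32.6 and 32.7 CPM in siHoxa5, a log2 fold change of 0.38 with SE 0.28 (adjusted p = 0.498). Of the 33 members, 3 had groups that did not overlap (IPO13, IPO11 and RANBP9), all higher in siHoxa5, where 9.39% of the 4397 rows did not overlap, with 5.03% higher and 4.37% lower. The remaining receptors were TNPO3, the importer of serine-arginine-rich splicing factors, at 128 ± 13.3 against 119 ± 13.8 CPM (-0.10, SE 0.14), and IPO9, an importer of histones H2A and H2B, at 105 ± 21.3 against 99.5 ± 15.8 CPM (-0.08, SE 0.16).

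**Figure D4:**
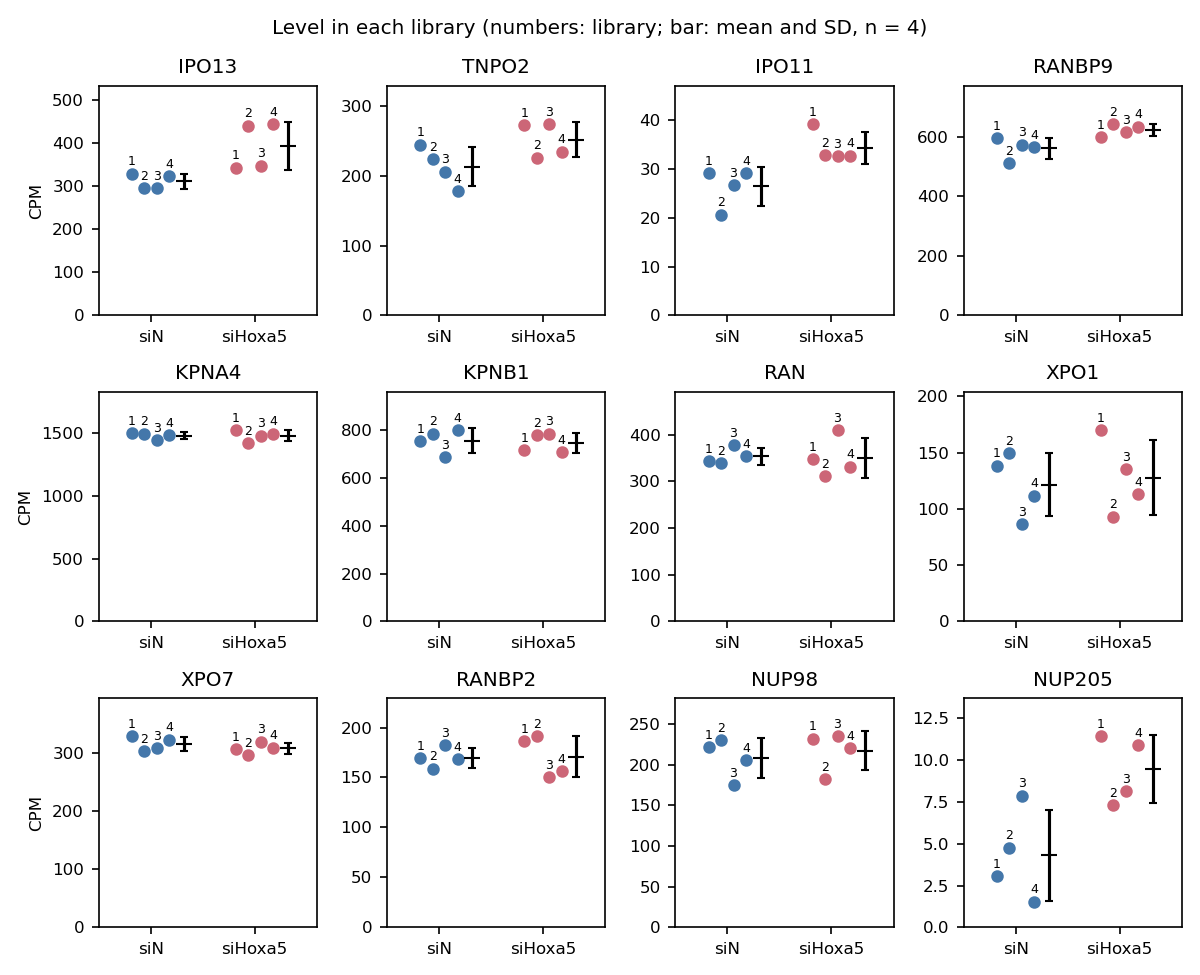
Level in CPM (vertical axis, from 0) of 12 genes in each library, numbered 1 to 4, with mean and SD of each group of 4. IPO13 is highest in siHoxa5 libraries 2 and 4, TNPO2 in siHoxa5 libraries 1 and 3, and KPNA4 and KPNB1 overlap between groups.

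None of the 8 exportins was called. XPO1 (CRM1), the receptor for leucine-rich export signals, varied widely between libraries of a group: 138, 149, 86.6 and 112 CPM in siN and 170, 92.9, 135 and 113 CPM in siHoxa5. Its log2 fold change was 0.08 with a 95% interval of -0.22 to 0.39 (adjusted p = 0.836). XPO7, a broad-range receptor, was steadier, at 329, 303, 309 and 323 CPM in siN and 307, 297, 320 and 309 CPM in siHoxa5 (-0.04, SE 0.09, adjusted p = 0.894). CSE1L, which returns importin alpha to the cytoplasm, had 115, 106, 85 and 116 CPM in siN and 97.97, 104, 101 and 92.8 CPM in siHoxa5 (-0.10, SE 0.16). All 4 siHoxa5 libraries of CSE1L fell inside the siN range.

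XPO4, which exports eIF5A and SMAD3 and imports SOX factors, was at 92.3, 79.4, 78.7 and 98.04 CPM in siN and 126, 109, 81.5 and 94.6 CPM in siHoxa5 (0.24, SE 0.16, adjusted p = 0.461). The siHoxa5 libraries 1 and 2 lay above the siN range and 3 and 4 within it. XPO6, the exporter of actin and profilin, had 109 ± 23.5 against 94.2 ± 21.5 CPM (-0.21, SE 0.16). XPO5, the exporter of microRNA precursors, had 42.6 ± 13.1 against 48.5 ± 14.2 CPM (0.18, SE 0.23), and XPOT, the exporter of transfer RNA, 25.7 ± 7.89 against 21.5 ± 4.28 CPM (-0.25, SE 0.32). RANBP17, a relative of XPO7, had 3, 8, 7 and 5 counts in siN and 4, 4, 1 and 2 in siHoxa5, too few for the filter. In the fit of all rows with the sum its log2 fold change was -0.88 with a 95% interval of -2.07 to 0.31.

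RAN, the GTPase that gives transport its direction, was at 343, 338, 378 and 354 CPM in siN and 348, 311, 409 and 331 CPM in siHoxa5. Its log2 fold change of -0.0097 had a 95% interval of -0.19 to 0.17 (adjusted p = 0.973). The siHoxa5 libraries spread to both sides of the siN range, with library 3 highest and library 2 lowest. RANBP9 and RANBP10, scaffold subunits of the CTLH ubiquitin ligase whose names come from binding Ran, differed from each other in pattern. RANBP9 had 595, 513, 574 and 567 CPM in siN and 599, 643, 616 and 635 CPM in siHoxa5 (0.15, SE 0.07, adjusted p = 0.246), without overlap, although siHoxa5 library 1 and siN library 1 lay within a few CPM of each other. RANBP10 had 131, 95.2, 123 and 78.1 CPM in siN and 94.7, 109, 89.7 and 118 CPM in siHoxa5 (-0.06, SE 0.16).

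The 7 measured pore proteins gave no call. Summed, they took 716 to 768 CPM in siN and 701 to 776 CPM in siHoxa5. RANBP2 (NUP358), the filament protein that binds RANGAP1 on the cytoplasmic side, had 169, 159, 183 and 169 CPM in siN and 186, 191, 150 and 156 CPM in siHoxa5 (0.0092, SE 0.12, adjusted p = 0.975). Its siHoxa5 values stood on either side of the siN range, 1 and 2 above and 3 and 4 below. NUP214, a phenylalanine-glycine nucleoporin of the same side, had 32.3, 31.7, 48.8 and 35.2 CPM in siN and 34.3, 54.6, 31.0 and 32.7 CPM in siHoxa5 (0.04, SE 0.25).

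NUP98, a mobile nucleoporin whose transcript also encodes the Y complex protein NUP96, was at 221, 230, 175 and 205.3 CPM in siN and 232, 182, 235 and 220 CPM in siHoxa5 (0.07, SE 0.11, adjusted p = 0.817). NUP153, of the nuclear basket, had 40.0, 49.2, 36.2 and 64.3 CPM in siN and 42.4, 54.6, 35.9 and 61.8 CPM in siHoxa5 (0.03, SE 0.22), a spread between libraries within each group far above the difference between groups. NUP58, a channel nucleoporin, was at 209, 159, 197 and 208 CPM in siN and 189, 199, 176 and 182 CPM in siHoxa5 (-0.05, SE 0.12). All 4 siHoxa5 libraries of NUP58 lay inside the siN range. NUP93, the inner ring scaffold, had 78.4, 96.8, 69.3 and 84.2 CPM in siN and 80.0, 83.8, 65.2 and 58.2 CPM in siHoxa5 (-0.19, SE 0.18), with siHoxa5 libraries 3 and 4 below the siN range and 1 and 2 inside it.

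NUP205, the large partner of NUP93 in the inner ring, had 2, 3, 5 and 1 counts in siN and 7, 4, 5 and 6 in siHoxa5. In the fit of all rows with the sum its log2 fold change was 1.12, with a 95% interval from -0.07 to 2.31 (adjusted p = 0.368), and counts were too few for the filter. The largest fold change among the members is therefore also one of the least precise, and siN library 3 lay above siHoxa5 library 2 in CPM.

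**Figure D5:**
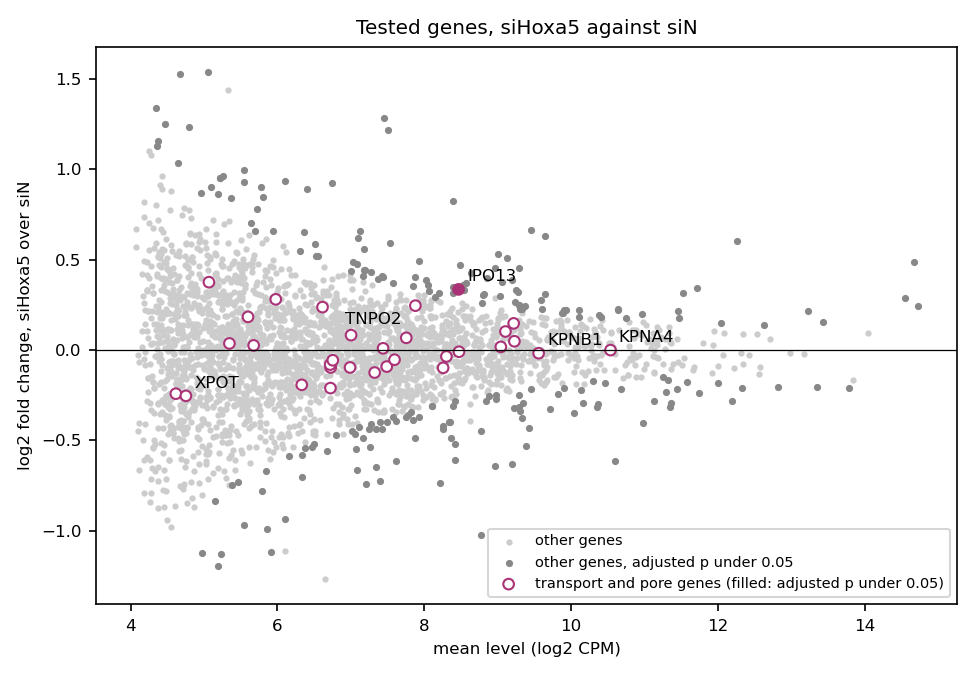
Log2 fold change (vertical axis) against mean level in log2 CPM (horizontal axis) for the 3020 genes tested, with the 31 transport and pore genes that passed the filter as circles. IPO13 is the filled circle, and KPNA4 and KPNB1, on the right, lie at 0.

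Genes of the same pathway with other symbols were looked at in a separate list of 41, of which 18 reached a sum of 16, 16 had 0 counts and 13 passed the filter. Of the 13, 1 rose and 0 fell, where 7.12% of all genes tested were called. THOC2, the scaffold of the THO complex that couples transcription to messenger RNA export, had 378, 398, 439 and 389 CPM in siN and 490, 510, 440 and 553 CPM in siHoxa5 (0.31, SE 0.08, adjusted p = 0.00714), without overlap but with siN library 3 and siHoxa5 library 3 side by side. Without siHoxa5 libraries 2 and 4, which were also its highest, its log2 fold change was 0.22 and the call ended (adjusted p = 0.178). ENY2, of the TREX-2 complex, had 471 ± 33.5 against 420 ± 19.0 CPM (-0.17, SE 0.08, adjusted p = 0.234). The groups of ENY2 did not overlap, with siHoxa5 lower.

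Of 20 genes of the nuclear envelope and lamina, into which pores are set, 5 reached a sum of 16 and 4 passed the filter; of these 1 rose and 0 fell, beside the same 7.12% of all genes. TMPO, which encodes the lamina-associated polypeptides 2, had 69.2, 52.4, 42.5 and 82.7 CPM in siN and 109, 91.1, 97.8 and 90.9 CPM in siHoxa5, without overlap (0.66, SE 0.18, adjusted p = 0.00991). Its call ended without siN library 2 (0.59, adjusted p = 0.0584) or siN library 3 (0.51, adjusted p = 0.105). Without siHoxa5 libraries 2 and 4, the lowest siHoxa5 libraries for TMPO, the call stayed (0.75, adjusted p = 0.0112). LMNA, encoding lamins A and C, had 171, 246, 206 and 225 CPM in siN and 163, 209, 189 and 196 CPM in siHoxa5 (-0.16, SE 0.12, adjusted p = 0.474), and LMNB1, lamin B1, had a log2 fold change of 0.16 (SE 0.25).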

How the data were processed

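Per the submitters' processing notes, the tools named are STAR 2.6.1b, HTSeq, FastQC 0.11.8 and R 3.5.3, with the build mm10. The authors deposited estimated counts per gene symbol, not normalized; the sources used here give no annotation, strand setting or treatment of reads with several matches, and the kit named does not mark strand. The 8 library files equalled the series table. Of 33514 rows, 7926 had a count and none lacked a name, while 27 names had turned into dates; values ending in 0.5 (4 rows) were rounded. All 8 libraries were fitted with edgeR 4.0.16 (limma 3.58.1, R 4.3.3; TMM, filterByExpr with minimum count 10 and total 15, robust quasi-likelihood fit, group as the only term), with Benjamini-Hochberg adjustment over 3020 genes and a threshold of 0.05. Fold changes are siHoxa5 over siN from this fit, except for NUP205, RANBP17 and the medians and interval counts, which come from all 4397 rows with a sum of at least 16. CPM use TMM-scaled totals. Intervals of fold changes use the fit's standard errors, and the limit for a count of 0 is 3 counts, for counting error only.

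On simulated counts for this comparison (3023 genes), the fit recovered 33.3% of changes of 0.32 on the log2 scale, 62.5% of 1.5-fold changes and 90.9% of 2-fold changes. Members and lists were chosen with earlier results of these data known. The rule for named genes gave values in every library for members past the threshold and, in each role group, for the 2 with the smallest p and the 1 with the most counts. It gave values alone for members whose groups do not overlap and, of each other list, for genes past the threshold and the 3 with the smallest p. The rule's result for 1 gene of the other transport list is not reported here. Library values of IPO7, IPO11, RANBP6, TNPO1, XPO1 and CSE1L were added after they were seen. NUP58 was matched to mouse Nupl1 by its RefSeq synonym. Length and GC content were known for 31 of the 33 members.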

Additional observations from a re-analysis of the deposited data

Results flagged for a closer look

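In 4 of 78 groups of 4 libraries tested, for the members and the genes named from the other lists, 1 library lay far from the other 3 (Dixon's ratio above 0.829; chance flags about 5% of groups). IPO11 was at 39.2 CPM in siHoxa5 library 1, with the others at 32.6 to 32.8 CPM. NUP214 was at 54.65 CPM in siHoxa5 library 2, with the others at 31.0 to 34.3 CPM. LMNB1 was at 49.0 CPM in siN library 4 (the others 31.75 to 33.8 CPM) and at 60.0 CPM in siHoxa5 library 4 (the others 34.6 to 35.9 CPM).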

How the results depend on the processing

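The count of all genes past the threshold, 215, was 119 with DESeq2, 143 without siHoxa5 libraries 2 and 4 (a setting chosen after seeing the data) and 145 to 260 without single libraries. The count of members, 1, was 0 without siHoxa5 libraries 2 and 4 and 0 to 1 without single libraries; that of other transport genes, 1, was 0 and 1 to 2; that of envelope genes, 1, was 0 to 1 without single libraries. The members' median was -0.0441 with the length and GC trend removed and -0.0249 to 0.0381 without single libraries. IPO13 kept its direction in all 16 settings and its call in 12, with 0.15 to 0.40.

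Members without a call, and LMNB1 of the envelope list, changed sign as follows; none passed the threshold where its sign changed. KPNA4 was 0.0003 with DESeq2 size factors, 0.0004 with DESeq2, 0.0119 on rows with a sum of at least 16, 0.0092 without a filter and 0.0253 without siHoxa5 libraries 2 and 4; RAN was 0.0029, 0.0003 and 0.11 under the last 3. With the length and GC trend removed KPNA3 was -0.0103, RANBP2 -0.11 and TNPO1 -0.0286. Without siHoxa5 libraries 2 and 4 NUP153 was -0.27, NUP214 -0.18, RANBP2 -0.0097, TNPO3 0.0364 and LMNB1 -0.0374. Without single libraries the ranges were KPNA4 -0.014 to 0.0199, RAN -0.0957 to 0.0423, KPNB1 -0.0636 to 0.0083, KPNA3 -0.0034 to 0.0912, TNPO1 -0.0422 to 0.0588, IPO9 -0.17 to 0.0398, XPO1 -0.0877 to 0.20, XPO5 -0.0073 to 0.34, RANBP10 -0.18 to 0.0595, RANBP2 -0.0454 to 0.0693, NUP98 -0.009 to 0.14, NUP153 -0.11 to 0.21, NUP214 -0.18 to 0.19 and LMNB1 -0.0587 to 0.33. The cause of these shifts was not tested.

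Same-numbered libraries of the groups deviated together little (correlations -0.02 to 0.07). The siHoxa5 libraries 1 and 4 correlated best with the same-numbered siN library, and siHoxa5 libraries 2 and 3 did not. Whether the numbers pair cultures is not settled by this, since counting noise at this depth also lowers such correlations. With the replicate block 250 genes were called in place of 215, IPO13 was 0.33 and the members' count stayed 1. Low counts limit NUP205, RANBP17, KPNA5, XPOT and IPO11 most.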
